A study of Mus musculus with 3 samples.

Results

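The replication-dependent histone genes were taken as all protein-coding mouse genes whose symbol starts with H2ac, H2bc, H3c or H4c, or is one of H1f1 to H1f5. That rule gave 62 of the 21883 protein-coding genes on chromosomes 1 to 19, X and Y. They comprised 5 H1 linker histone genes, 17 H2A, 16 H2B, 12 H3 and 12 H4 genes.

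Open chromatin was measured by single-nucleus ATAC-seq, in which the Tn5 transposase cuts accessible DNA and the cut ends are counted in each barcoded nucleus. The 3 libraries came from mouse brain tumour experiments made by in utero electroporation of piggyBac vectors, a transposon system that inserts DNA into the genome of the electroporated cells. There was 1 library each for PDGFB-NLS overexpression, PDGFB-WT overexpression and Control, and all were labelled as glioma. The deposited Control files are named Normal, so it is not clear from these sources whether Control was a tumour, and ratios over Control are ratios over a library so labelled. PDGFB is a growth factor ligand of PDGF receptors; the meaning of NLS is left as the labels give it. The title of the series names mutant IDH, but no library was labelled with an IDH genotype. The promoter driving PDGFB, the age and strain of the animals, the number of animals pooled and what the Control received were not stated in these sources. With 1 library per group no difference could be tested, and each interval below covers counting error within these libraries only.

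The histones these genes encode package newly copied DNA, and their transcription is tied to S phase. Most of the genes are short and lack introns, and their mRNAs end in a stem-loop bound by SLBP in place of a poly(A) tail. Their transcription is organised by NPAT in nuclear bodies at the gene clusters, with OCT1 at H2B promoters and HINFP at H4 promoters. Accessibility at their ends shows open chromatin there and does not measure histone mRNA.

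The 62 genes lay in 3 runs in the RefSeq annotation of GRCm38.p6. The run on chromosome 3 held 10 genes in 50.3 kb (chr3:96219885-96270192) with no other protein-coding gene between them. The first run on chromosome 13 held 22 genes in 328 kb (chr13:21715711-22043658), with 4 other genes inside it: H4bc24, Pom121l2, Prss16 and Zfp184. The second held 30 genes in 404 kb (chr13:23531044-23934913), with 7 others: H1f6, Hfe, Trim38 and the transporter genes Slc17a1, Slc17a2, Slc17a3 and Slc17a4. No gene on chromosome 11 matched the symbol rule in this annotation.

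The libraries differed in depth before any comparison was made. After barcodes with fewer than 200 counts were left out, 10996 barcodes were kept in PDGFB-NLS, 7441 in PDGFB-WT and 2226 in Control. The median counts per barcode were 2767.5 in PDGFB-NLS, 821 in PDGFB-WT and 13054 in Control. The counts in the 47450 regions called in all 3 libraries summed to 24566056, 6747958 and 25780355 in the same order. Levels below (CPM) are counts scaled to 1e+06 counts in those regions. Barcodes present in 2 libraries numbered 45 between PDGFB-NLS and Control, 22 between PDGFB-WT and Control, and 118 between PDGFB-NLS and PDGFB-WT. Marker genes of oligodendrocyte precursors, oligodendrocytes, astrocytes, microglia, endothelium and neurons each marked clusters of nuclei in PDGFB-NLS and Control, and those of microglia, oligodendrocyte precursors and astrocytes did in PDGFB-WT, so the libraries labelled glioma held mixed brain cells.

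Promoter sequences from RefSeq (GRCm38.p6), each from 250 bases before the gene start to 50 after it, were matched for 57 of the 62 genes. Motifs known from histone promoters were searched on both strands: the TATA box as TATAAA, the CCAAT box as CCAAT, and the octamer bound by OCT factors as ATTTGCAT. The 4 promoters printed here, 5′ to 3′ along the gene with motif matches in capitals, are those that the values below turn on: H2bc8 holds all 3 motifs and had a peak, H2bc1 holds all 3 and had none, H4c2 holds none and had the highest PDGFB-WT over Control ratio of any histone region compared, and H4c17 is a near copy of H4c18. H2bc8 lies at chr13:23571150-23571449 (+ strand), H2bc1 at chr13:23934107-23934406 (- strand), H4c2 at chr13:23756687-23756986 (+ strand) and H4c17 at chr13:21811496-21811795 (+ strand).
H2bc8: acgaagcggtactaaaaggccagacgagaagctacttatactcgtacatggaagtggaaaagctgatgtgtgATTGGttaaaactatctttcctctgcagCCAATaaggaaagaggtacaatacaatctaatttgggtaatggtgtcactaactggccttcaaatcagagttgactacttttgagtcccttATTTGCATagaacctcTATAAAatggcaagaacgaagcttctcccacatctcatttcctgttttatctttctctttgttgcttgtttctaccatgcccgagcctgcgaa
H2bc1: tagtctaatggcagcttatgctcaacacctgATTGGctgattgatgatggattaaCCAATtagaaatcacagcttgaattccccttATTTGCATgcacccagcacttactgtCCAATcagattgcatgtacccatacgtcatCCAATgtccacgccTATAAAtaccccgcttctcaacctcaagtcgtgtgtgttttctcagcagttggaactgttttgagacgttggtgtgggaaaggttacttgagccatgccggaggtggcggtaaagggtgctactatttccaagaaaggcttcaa
H4c2: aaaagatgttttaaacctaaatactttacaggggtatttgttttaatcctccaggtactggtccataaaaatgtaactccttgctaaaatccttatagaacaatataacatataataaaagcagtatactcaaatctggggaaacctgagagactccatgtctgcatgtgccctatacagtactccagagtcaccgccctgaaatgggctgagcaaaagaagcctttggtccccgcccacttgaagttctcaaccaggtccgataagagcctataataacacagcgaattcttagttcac
H4c17: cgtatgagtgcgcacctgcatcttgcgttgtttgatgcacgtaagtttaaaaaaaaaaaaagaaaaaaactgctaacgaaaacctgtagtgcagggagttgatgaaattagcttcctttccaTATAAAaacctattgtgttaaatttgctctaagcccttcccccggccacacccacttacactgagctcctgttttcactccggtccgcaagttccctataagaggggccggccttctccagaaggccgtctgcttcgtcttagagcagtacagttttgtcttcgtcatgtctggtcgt

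In H2bc8 the octamer stands just before the TATA box, the arrangement known from H2B promoters. In H2bc1, a testis-specific H2B gene, the octamer also stands upstream of the TATA box, with CCAAT boxes between them. A match describes the letters only and was not read as a bound site.

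The TATA box letters were found in 34 of the 57 promoters (59.6%), against 14.8% of the 17491 protein-coding genes with a promoter in the table. The CCAAT box was found in 49 (86.0%), against 42.3% of all genes. The octamer was found in 13 (22.8%), against 1.90% of all genes. The families differed in which motif they held. All matched H1, H2A, H2B and H3 promoters held a CCAAT box, while 3 of 11 H4 promoters did. The octamer was found in 7 of 14 H2B and 6 of 17 H2A promoters and in no H1, H3 or H4 promoter. Promoters of neighbouring H2A and H2B genes can overlap, so a motif site can be counted for both genes. Those of H2ac8 and H2bc8, H2ac12 and H2bc12, and H2ac1 and H2bc1 overlap and all hold the octamer. The TATA box was found in every family, from 4 of 10 H3 promoters to 4 of 5 H1 promoters. Median GC content was 45.3% in the histone promoters and 56.3% in all promoters.

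**Figure D1:**
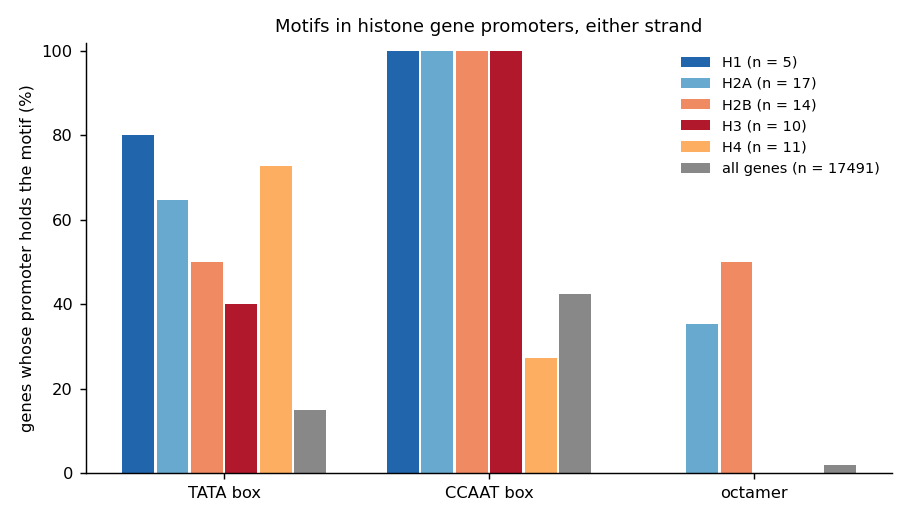
Share of genes (%) whose RefSeq promoter holds the TATA box, CCAAT box or octamer on either strand, by histone family and for all protein-coding genes. The CCAAT bars stand at 100% for H1, H2A, H2B and H3 but at 27.3% for H4, and the octamer bars are present for H2A and H2B and for all genes.

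Some promoters are near copies, and reads from them may be split or dropped when they are mapped. H4c17 and H4c18 differed by an edit distance of 3 over 300 bases. The share of 50-base stretches also found in another, non-overlapping promoter was 100% for H2bc23, 94.0% for H4c17 and H4c18, 86.9% for H2ac23, 74.1% for H3c14 and H3c15, 73.3% for H2ac24 and 67.7% for H2ac18 and H2ac19. It was 11.6% for H4c11 and H4c12 and 0 for the other matched genes. Values of the genes at 67.7% or above are uncertain for this reason.

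Nearly all histone genes had open chromatin at an end. In each library, 59 of the 62 genes (95.2%) had a peak within 1000 bp of either end, against 69.7% of all protein-coding genes in PDGFB-NLS, 59.9% in PDGFB-WT and 67.7% in Control. The genes without one were the same in all 3 libraries: H2bc1 and H2ac1, a neighbouring pair of testis histone genes, and H2bc23, whose promoter is wholly repeated elsewhere. A peak lay over the start site itself in 49 of the 57 genes with a promoter sequence in PDGFB-NLS, 48 in PDGFB-WT and 50 in Control, against 63.4%, 56.8% and 62.3% of all genes in the same order. The genes were served by 57 distinct peaks in PDGFB-NLS, 52 in PDGFB-WT and 59 in Control. Merging overlapping peaks across libraries gave 60 regions. All 3 libraries had a peak in 52 of them, 31 lay at the ends of more than 1 histone gene, and 1 was shared with a gene outside the set (H1f6, beside H4c3). Values of genes that share a region are therefore not independent of each other.

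The most accessible gene ends were those of H3c1 and H4c1, neighbours in the second chromosome 13 run. H3c1, an H3.1 gene, had 166 CPM in PDGFB-NLS, 165 CPM in PDGFB-WT and 168 CPM in Control. H4c1 had 131 CPM in PDGFB-NLS, 132 CPM in PDGFB-WT and 143 CPM in Control. Most of both sums came from 1 region that H4c1 and H3c1 share, which had 103 CPM in PDGFB-NLS, 100.03 CPM in PDGFB-WT and 111 CPM in Control. The libraries were alike at these genes.

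H3c13 and H2bc18, which share both their peaks on chromosome 3, came next with 75.7 CPM in PDGFB-NLS, 78.5 CPM in PDGFB-WT and 79.5 CPM in Control. H2ac11 had 71.5 CPM in PDGFB-NLS, 84.3 CPM in PDGFB-WT and 72.3 CPM in Control. H1f4, which encodes a linker histone that binds DNA between nucleosomes, had 62.7 CPM in PDGFB-NLS, 85.7 CPM in PDGFB-WT and 68.6 CPM in Control. For the last 2 genes PDGFB-WT was highest and PDGFB-NLS and Control lay close together. The order of genes depends on how many peaks lie near each: per kb of peak, H2ac6 and H2bc4 averaged 68.7 CPM over the libraries and H2ac22 and H2bc22 67.5 CPM, against 66.9 CPM for H3c1.

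At the low end stood the repeated genes of the first chromosome 13 run. H2ac23 and H4c17 shared a peak with 97 counts in PDGFB-NLS, 20 in PDGFB-WT and 76 in Control, and the peak of H4c18 and H2ac24 had 61 counts in PDGFB-NLS, 25 in PDGFB-WT and 73 in Control. None of these 4 genes had the 100 counts in both libraries that a ratio required, although H4c18 reached 103 counts in PDGFB-NLS from an added peak. H2ac18 and H3c14 had 86 counts in PDGFB-WT and were compared only between PDGFB-NLS and Control. The plot of levels by gene shows these genes far below their neighbours in all 3 libraries.

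**Figure D2:**
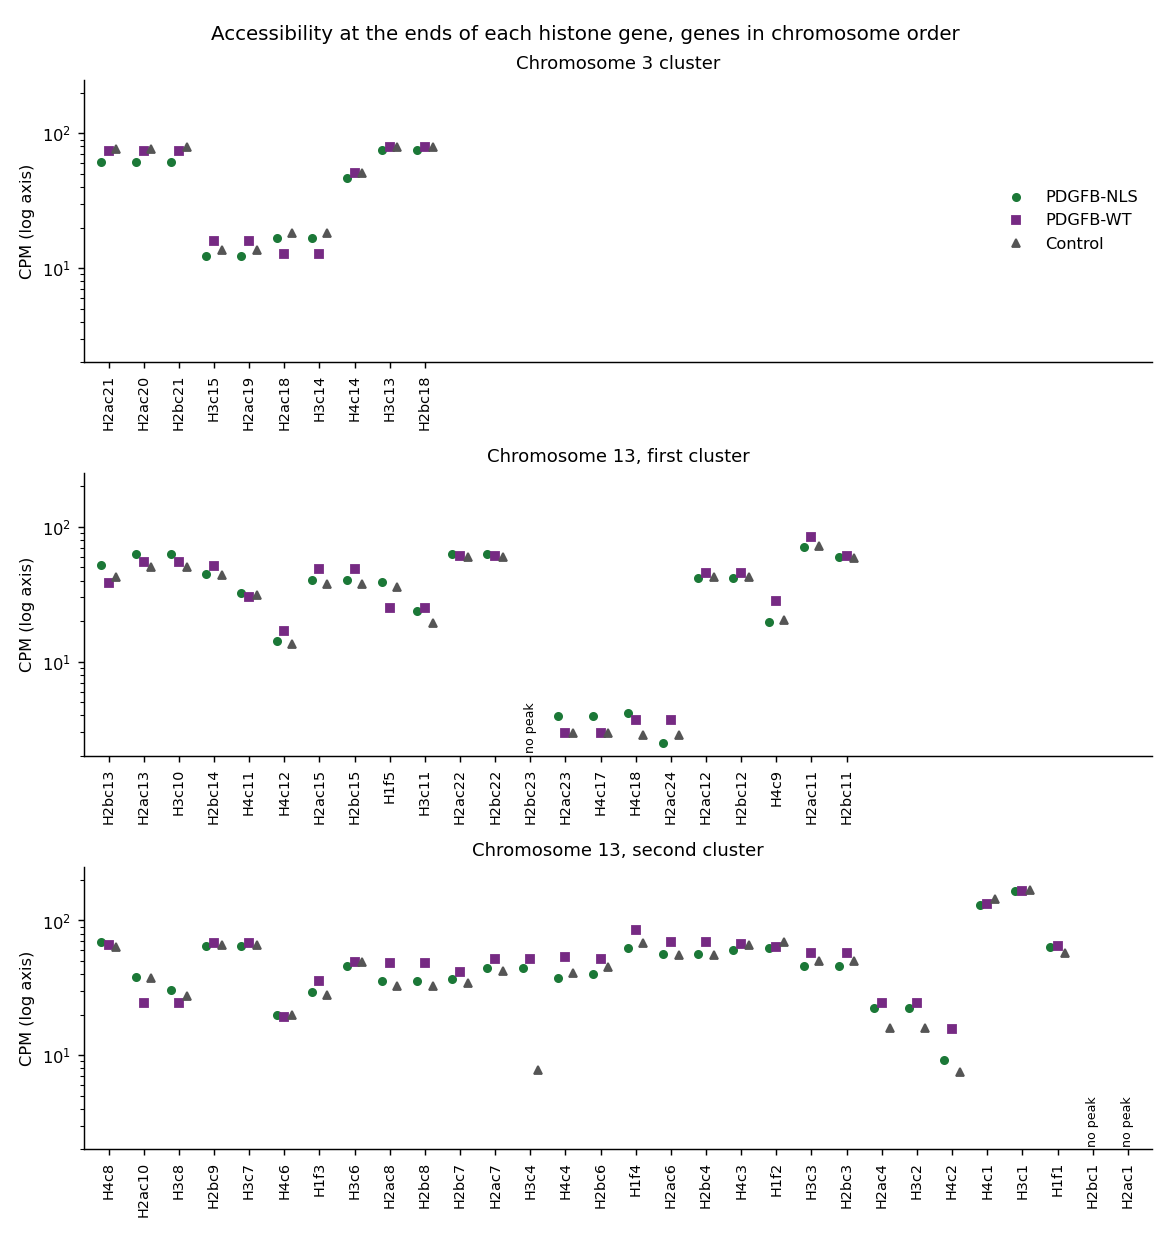
CPM at the ends of each histone gene (log axis), genes in chromosome order in the 3 runs, with a circle for PDGFB-NLS, a square for PDGFB-WT and a triangle for Control. Levels ran from 2.48 CPM at H2ac24 to 168 CPM at H3c1, and the 3 libraries lay close together at most genes; genes that share peaks have the same points.

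Summed over the distinct peaks of all genes, the histone loci had 1549 CPM in PDGFB-NLS, 1652 CPM in PDGFB-WT and 1555 CPM in Control. These sums were 0.155%, 0.165% and 0.156% of the counts in common regions. In sums over a library, fewer nuclei of a type and less signal per nucleus cannot be told apart. Each ratio below has the median log2 ratio over all compared genes taken off, which was -0.01 for PDGFB-NLS over Control, -0.17 for PDGFB-WT over Control and 0.14 for PDGFB-NLS over PDGFB-WT. The 3 comparisons share libraries, so they are not independent of one another.

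Between PDGFB-NLS and Control the histone loci differed little. The pooled log2 ratio was 0.01 (95% counting interval -0.02 to 0.03). Of the 55 genes with at least 100 counts in both libraries, 28 lay above the all-gene median, and their median log2 ratio was 0.02 against 0.00 for all genes. At least 1.5-fold higher was 1 gene, where 5.8% of all compared genes were, and 0 genes were at least 1.5-fold lower, where 1.91% of all were. Of 50 histone regions compared, 1 was at least 1.5-fold higher, a region of H2ac4 and H3c2, where 4.95% of all gene-end regions were, and 0 were lower, where 1.3% of all were.

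The gene past 1.5-fold was H3c4, and its value came from where a peak ended. H3c4 had 44.7 CPM in PDGFB-NLS, 51.7 CPM in PDGFB-WT and 7.76 CPM in Control, a log2 ratio of 2.54 for PDGFB-NLS over Control and 2.90 for PDGFB-WT over Control. The larger of its peaks lay 973 bp from the gene in PDGFB-NLS and 970 bp in PDGFB-WT but 1004 bp in Control, just beyond the window. That region itself had 36.6 CPM in PDGFB-NLS, 41.5 CPM in PDGFB-WT and 34.6 CPM in Control, log2 ratios of 0.10 and 0.41 over Control. H3c4 thus did not pass 1.5-fold over Control when merged regions were compared.

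Among the other genes the ratios of PDGFB-NLS over Control were largest at 2 chromosome 13 pairs. H2ac4 and H3c2, which share their peaks, had 22.6 CPM in PDGFB-NLS, 24.5 CPM in PDGFB-WT and 15.9 CPM in Control, a log2 ratio of 0.52 (0.26 to 0.77). Both PDGFB libraries lay above Control there. H2ac13 and H3c10 had 63.1 CPM in PDGFB-NLS, 55.3 CPM in PDGFB-WT and 50.3 CPM in Control, a log2 ratio of 0.34 (0.18 to 0.48).

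The lowest ratios were on chromosome 3. H2ac20 and H2ac21 had 61.2 CPM in PDGFB-NLS, 73.9 CPM in PDGFB-WT and 77.0 CPM in Control, a log2 ratio of -0.32 (-0.42 to -0.15) for PDGFB-NLS over Control. H2bc21, with the same peaks and a further one in Control, had 61.2 CPM in PDGFB-NLS, 73.9 CPM in PDGFB-WT and 78.7 CPM in Control, a log2 ratio of -0.35 (-0.45 to -0.19). PDGFB-NLS was the lowest library at this trio. The 10 genes of the chromosome 3 run lay below the all-gene median in PDGFB-NLS over Control, although H2ac18 and H3c14 stood at 0.03 over common regions, without a peak called in Control alone. The run had a pooled log2 ratio of -0.17 (-0.24 to -0.10), against 0.12 (0.07 to 0.17) for the first chromosome 13 run and -0.01 (-0.04 to 0.03) for the second. Next lowest were H2bc6 at -0.16 (-0.32 to 0.02) and H3c15 and H2ac19 at -0.15 (-0.48 to 0.16), whose intervals include 0. H2bc6 had 39.9 CPM in PDGFB-NLS, 51.4 CPM in PDGFB-WT and 45.0 CPM in Control. H3c15 and H2ac19 had 12.3 CPM in PDGFB-NLS, 16.005 CPM in PDGFB-WT and 13.7 CPM in Control, on repeated sequence. Of the other genes inside the runs, 4 had enough counts, and all lay above the all-gene median for PDGFB-NLS over Control. They were Zfp184 (0.46) and Pom121l2 (0.56) in the first chromosome 13 run, and Trim38 (0.56) and Hfe (0.21) in the second.

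In PDGFB-WT the histone loci as a group lay above Control relative to other genes. The pooled log2 ratio was 0.25 (0.21 to 0.30), or 0.087 (0.045 to 0.13) when the all-gene median was not taken off. Of 53 genes compared, 50 lay above the all-gene median, and the median gene stood at 0.30. At least 1.5-fold higher were 7 genes, where 5.91% of all compared genes were, and 0 were at least 1.5-fold lower, where 2.97% of all were. The 7 include H3c4 with its window edge and 2 pairs that share their peaks, and comparing merged regions gave 6. The genes thus shared a small shift: their pooled ratio was 1.19-fold.

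H4c2 had the largest ratio of any histone region compared. It had 9.28 CPM in PDGFB-NLS, 15.6 CPM in PDGFB-WT and 7.49 CPM in Control, a log2 ratio of 1.22 (0.66 to 1.66) for PDGFB-WT over Control from 193 counts in Control and fewer in PDGFB-WT. The H4c2 promoter, printed above, holds none of the 3 motifs. The H4c8 promoter holds none either, and H4c8 stood at 0.21 (0.05 to 0.47). H2ac8 and H2bc8, a pair that shares 1 peak over the H2bc8 promoter printed above, had 35.5 CPM in PDGFB-NLS, 48.5 CPM in PDGFB-WT and 32.8 CPM in Control, a log2 ratio of 0.73 (0.44 to 0.97). H2ac4 and H3c2 stood at 0.79 (0.37 to 1.11), and H4c9 at 0.64 (0.20 to 0.89). H4c9 had 19.6 CPM in PDGFB-NLS, 28.3 CPM in PDGFB-WT and 20.4 CPM in Control. At H4c2, H2ac8 and H2bc8, and H4c9, PDGFB-WT stood alone above the other libraries, while at H2ac4 and H3c2 both PDGFB libraries did.

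At the other end were the 5 genes with the lowest ratios. H2ac10 had 37.9 CPM in PDGFB-NLS, 24.5 CPM in PDGFB-WT and 37.2 CPM in Control, a log2 ratio of -0.44 (-0.81 to -0.12) for PDGFB-WT over Control. The region over the H2ac10 start site was not called in PDGFB-WT, so its count there is unknown. Over regions called in all 3 libraries the log2 ratio of H2ac10 was -0.03, from a region that lies over the start site of H3c8. H1f5 had 39.2 CPM in PDGFB-NLS, 25.04 CPM in PDGFB-WT and 35.8 CPM in Control, a log2 ratio of -0.35 (-0.74 to -0.07), and kept -0.37 over common regions. H3c8 had 30.4 CPM in PDGFB-NLS, 24.5 CPM in PDGFB-WT and 27.7 CPM in Control, a log2 ratio of -0.01 (-0.38 to 0.33). H2bc13 stood at 0.03 (-0.27 to 0.29), or 0.32 over common regions since a region of it was not called in PDGFB-WT, and H1f2 at 0.04 (-0.16 to 0.26). H2bc13 had 52.3 CPM in PDGFB-NLS, 38.2 CPM in PDGFB-WT and 42.2 CPM in Control, and H1f2 had 62.3 CPM in PDGFB-NLS, 63.4 CPM in PDGFB-WT and 69.5 CPM in Control.

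Counting each region once gave the same direction without shared peaks. Of the 40 histone regions called in all 3 libraries with at least 100 counts in PDGFB-WT and Control, 33 lay above the median of all gene-end regions, and their median log2 ratio was 0.32. At least 1.5-fold higher were 3 of them, where 6.81% of all gene-end regions were, and 0 were lower, where 2.04% of all were. The 3 regions were those of H4c2 (1.20), H2ac8 and H2bc8 (0.71), and H4c9 and H2ac11 (0.61). The shift was seen in every family, with pooled log2 ratios of 0.25 for H1, 0.32 for H2A, 0.30 for H2B, 0.32 for H3 and 0.24 for H4. By run it was 0.11 (0.00 to 0.22) on chromosome 3, 0.26 (0.18 to 0.34) in the first and 0.29 (0.23 to 0.34) in the second run on chromosome 13. On the CPM scale the chromosome 3 run had 232 in PDGFB-WT and 241 in Control, so its positive sign depends on the centring. Of the other genes inside the runs, 2 had enough counts: Zfp184 stood at 0.27 and the iron regulator Hfe at -0.02.

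**Figure D3:**
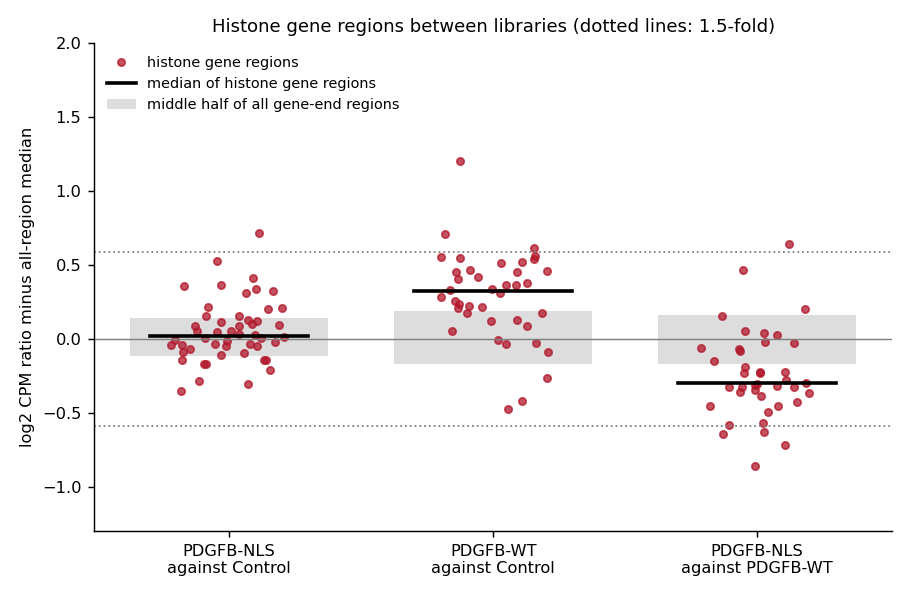
Log2 CPM ratio of each histone gene region between libraries, with the median of all gene-end regions taken off; black bars are the medians of the histone regions, grey boxes run from the lower to the upper quartile of all gene-end regions, and dotted lines mark 1.5-fold. The median is 0.02 for PDGFB-NLS over Control, 0.32 for PDGFB-WT over Control and -0.30 for PDGFB-NLS over PDGFB-WT.

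Between PDGFB-NLS and PDGFB-WT the histone loci were lower in PDGFB-NLS, with a pooled log2 ratio of -0.24 (-0.28 to -0.19), or -0.093 (-0.14 to -0.051) with the all-gene median not taken off. Of 53 genes compared, 6 lay above the all-gene median, and the median gene stood at -0.28. At least 1.5-fold lower were 6 genes, where 3.09% of all compared genes were, and 0 were at least 1.5-fold higher, where 2.46% of all were. The 6 genes were H4c2 at -0.89 (-1.33 to -0.36), H4c9 at -0.67 (-0.96 to -0.27), H4c4 at -0.66 (-0.89 to -0.39), H2ac8 and H2bc8 at -0.59 (-0.84 to -0.31), and H1f4 at -0.59 (-0.76 to -0.37). H4c4 had 37.4 CPM in PDGFB-NLS, 53.5 CPM in PDGFB-WT and 40.5 CPM in Control. The H4 genes made up 3 of these 6 and 10 of the 53 compared. By family the pooled log2 ratios were close: -0.26 for H4, -0.26 for H2A, -0.29 for H2B, -0.24 for H1 and -0.18 for H3.

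The highest ratio of PDGFB-NLS over PDGFB-WT was that of H1f5, at 0.50 (0.20 to 0.87), and it was 0.53 over regions called in all 3 libraries. H2ac10 stood at 0.49 (0.16 to 0.85) and H2bc13 at 0.31 (0.04 to 0.58), but a region of each was not called in PDGFB-WT. Over common regions they stood at 0.20 and 0.04. For H2ac10 the region not called is the one over its start site, and the common region lies over the start site of H3c8. H3c8 stood at 0.17 (-0.17 to 0.53), and H2ac13 and H3c10 at 0.05 (-0.18 to 0.28). Of 40 regions compared, 7 lay above the all-region median, and the median was -0.30. The regions at least 1.5-fold lower numbered 4, where 3.72% of all gene-end regions were, and the region at least 1.5-fold higher, where 1.5% of all were, was one at H1f5 (0.64).

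The share of oligodendrocyte-like nuclei and the depth per nucleus differed between the libraries beside these pooled ratios. PDGFB-WT had the lowest median counts per barcode, at 821. Oligodendrocyte-like nuclei, in which the histone loci were least accessible as described next, held 19.5% of the common counts in PDGFB-NLS and 25.2% in Control, and no cluster in PDGFB-WT took that name at the main clustering resolution. At a finer resolution, 519 PDGFB-WT barcodes with 6.89% of the counts did, and they had 1416 CPM (1270 to 1573). With oligodendrocyte-like nuclei of the finer clustering left out of all 3 libraries, the pooled log2 ratio was -0.045 for PDGFB-NLS over Control, 0.13 for PDGFB-WT over Control and -0.17 for PDGFB-NLS over PDGFB-WT. Capping each peak at 1 count per barcode gave -0.088 for PDGFB-NLS over Control, 0.11 for PDGFB-WT over Control and no gene past 1.5-fold for either. The part of depth in the differences was not tested.

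Nuclei were clustered within each library with the histone peaks left out, and clusters were named X-like from lists of 12 marker genes. Among the named classes, the histone loci were lowest in oligodendrocyte-like nuclei. Oligodendrocytes are mature myelinating cells. The loci had 1125 CPM (1084 to 1167) in the 2128 such nuclei of PDGFB-NLS and 1063 CPM (1028 to 1098) in the 361 of Control. OPCs are the precursors of oligodendrocytes, and OPC-like nuclei had 1385 CPM (1334 to 1437) in PDGFB-NLS, 1560 CPM (1487 to 1635) in PDGFB-WT and 1305 CPM (1185 to 1434) in the 57 of Control. The PDGFB-WT cluster with that name was also raised for oligodendrocyte markers, by a median log2 fold of 1.05. In turn, the oligodendrocyte-like clusters were raised for OPC markers, by 0.82 in PDGFB-NLS and 1.5 in Control. Their medians for oligodendrocyte markers were 2.46 in PDGFB-NLS and 3.66 in Control.

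Other glia and vascular nuclei had higher histone levels. Astrocyte-like nuclei had 1618 CPM (1570 to 1666) in PDGFB-NLS and 1616 CPM (1566 to 1667) in Control. Microglia or macrophage-like nuclei had 1741 CPM (1701 to 1782) in PDGFB-NLS, 1894 CPM (1813 to 1978) in PDGFB-WT and 1775 CPM (1737 to 1814) in Control. PDGFB-WT was highest in that class on this scale. Endothelial-like nuclei had 1811 CPM (1727 to 1897) in PDGFB-NLS and 1860 CPM (1789 to 1933) in Control, whose intervals overlap. Neuron-like nuclei had 1856 CPM (1732 to 1987) in PDGFB-NLS and 2257 CPM (2048 to 2482) in the 30 of Control. Mural or fibroblast-like nuclei, named in Control only, had 1706 CPM (1577 to 1842).

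**Figure D4:**
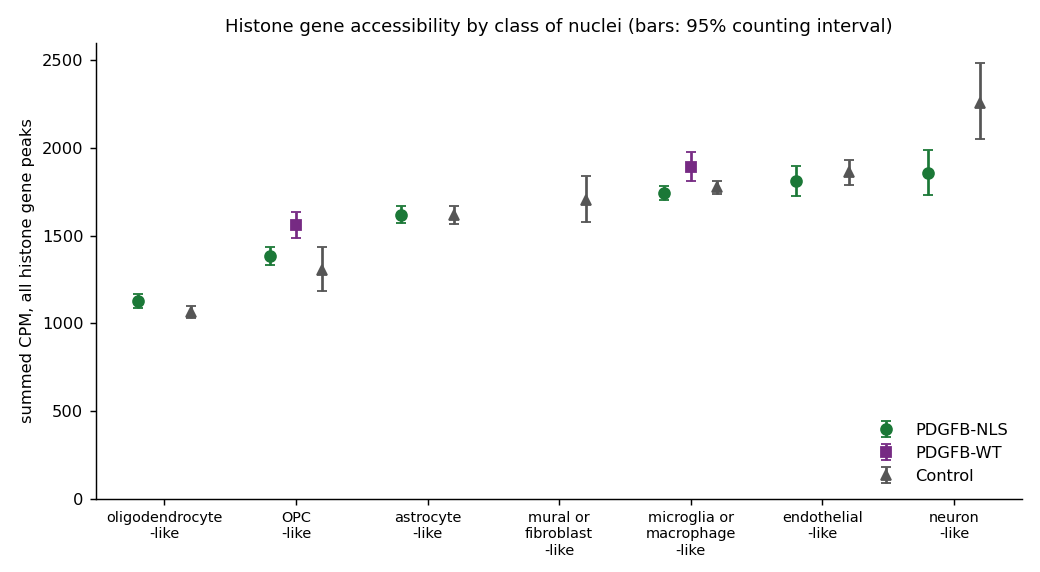
Summed CPM over all distinct histone gene peaks in each named class of nuclei, with a circle for PDGFB-NLS, a square for PDGFB-WT and a triangle for Control; bars are 95% counting intervals. Oligodendrocyte-like nuclei are lowest, at 1125 CPM in PDGFB-NLS and 1063 CPM in Control, and a missing symbol means that no cluster of that library took the name.

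Clusters without a name also spanned this range. In PDGFB-WT the 3 unnamed clusters had 1554, 1216 and 1864 CPM, the first of them with 10 of 11 measured astrocyte markers at least 2-fold above the rest but left unnamed for an endothelial marker among its leading genes, and in Control the 2 unnamed clusters had 952 and 1911 CPM. The lowest in each library were the PDGFB-WT cluster at 1216 CPM and the Control cluster at 952 CPM. Both had Kctd16, Chl1, Brox and Aida among their 10 leading genes and stayed unnamed because no marker list reached the threshold.

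Against all other nuclei of the same library, oligodendrocyte-like nuclei had fewer histone counts across the whole set. In PDGFB-NLS the pooled log2 ratio was -0.55 (-0.61 to -0.49), a ratio of 0.684, and 41 of 42 genes compared lay below the all-gene median. At least 1.5-fold lower were 15 of them, where 3.72% of all compared genes were, and 0 were higher, where 8.83% of all were. In Control the pooled log2 ratio was -0.71 (-0.77 to -0.66), a ratio of 0.609, and 43 of 43 lay below. At least 1.5-fold lower were 28 of them, where 5.99% of all were, and 0 were higher, where 10.7% of all were.

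The genes lowest in oligodendrocyte-like nuclei were in the chromosome 13 runs. In Control, H2ac12 and H2bc12 had 19.1 CPM in oligodendrocyte-like nuclei and 50.2 CPM in other nuclei, a log2 ratio of -1.41 (-1.83 to -1.05). H1f1 had 27.2 CPM in those nuclei and 67.5 CPM in others, a log2 ratio of -1.33 (-1.58 to -0.95). H1f1 encodes a linker histone, so core and linker genes were both among the lowest. H2ac13 and H3c10 stood at -1.20 (-1.55 to -0.89). In PDGFB-NLS, H2ac7 and H3c4 had 23.3 CPM in oligodendrocyte-like nuclei and 49.9 CPM in other nuclei, a log2 ratio of -1.09 (-1.46 to -0.66), and H4c1 had 76.4 CPM and 144 CPM, a log2 ratio of -0.91 (-1.13 to -0.69).

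H4c14, an H4 gene on chromosome 3, did not share the low level. It had 50.4 CPM in oligodendrocyte-like nuclei and 45.6 CPM in other nuclei of PDGFB-NLS, a log2 ratio of 0.15 (-0.13 to 0.44), and 51.4 CPM and 51.0 CPM in Control, a log2 ratio of -0.01 (-0.25 to 0.25). H1f3 was the next highest in both libraries, at -0.12 (-0.55 to 0.24) in PDGFB-NLS and -0.22 (-0.61 to 0.12) in Control. By run, the pooled log2 ratios of oligodendrocyte-like over other nuclei were -0.40 (-0.52 to -0.22) in PDGFB-NLS and -0.27 (-0.38 to -0.14) in Control on chromosome 3. In the first chromosome 13 run they were -0.39 (-0.50 to -0.29) in PDGFB-NLS and -0.83 (-0.94 to -0.73) in Control, and in the second -0.67 (-0.74 to -0.58) in PDGFB-NLS and -0.80 (-0.86 to -0.72) in Control. All 5 families were lower, from -0.51 for H2B to -0.67 for H3 in PDGFB-NLS, and from -0.68 for H2B to -0.86 for H2A in Control.

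The other classes with at least 27 histone genes compared showed smaller pooled differences. Microglia or macrophage-like nuclei stood at 0.19 (0.15 to 0.23) against other nuclei in PDGFB-NLS and 0.29 (0.25 to 0.33) in Control, but at -0.10 (-0.17 to -0.02) in PDGFB-WT. The all-gene medians taken off were 0.07 in PDGFB-NLS, 0.01 in Control and 0.39 in PDGFB-WT. On the CPM scale the class lay above other nuclei in every library, so the negative sign in PDGFB-WT depends on the centring. It had 1741 against 1456 CPM in PDGFB-NLS, 1894 against 1545 CPM in PDGFB-WT and 1775 against 1436 CPM in Control. At least 1.5-fold higher in that class were 4 of 52 histone genes in PDGFB-NLS, where 9.52% of all compared genes were, 1 of 35 in PDGFB-WT, where 5% of all were, and 13 of 53 in Control, where 12.2% of all were. No histone gene was at least 1.5-fold lower there, where 7.59% of all genes in PDGFB-NLS, 4.1% in PDGFB-WT and 7.15% in Control were. Astrocyte-like nuclei stood at 0.12 (0.07 to 0.17) in PDGFB-NLS, with 4 of 47 genes at least 1.5-fold higher, where 8.34% of all were, and 0 lower, where 6.82% were. They stood at 0.14 (0.09 to 0.19) in Control, with 12 of 46 higher, where 10.4% of all were, and 1 lower, where 10.5% were. At the finer resolution the Control value was 0.038 (-0.02 to 0.10). There 7 of 38 were higher, where 634 of all 7329 compared genes were, and 1 was lower, where 664 were.

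OPC-like nuclei at the main resolution stood at -0.10 (-0.15 to -0.04) in PDGFB-NLS and -0.14 (-0.22 to -0.06) in PDGFB-WT. At the finer clustering resolution this was not so: they stood at 0.012 (-0.05 to 0.08) in PDGFB-NLS and -0.06 (-0.15 to 0.03) in PDGFB-WT. At least 1.5-fold lower were 3 of 41 histone genes in PDGFB-NLS, where 2.54% of all compared genes were, and 1 of 31 in PDGFB-WT, where 1.94% of all were. None was at least 1.5-fold higher, where 11.1% of all genes in PDGFB-NLS and 5.25% in PDGFB-WT were. Endothelial-like nuclei stood at -0.09 (-0.16 to -0.02) in PDGFB-NLS, with 0 of 27 genes past 1.5-fold, where 7.01% of all were higher and 1.85% lower. They stood at -0.03 (-0.09 to 0.03) in Control, with 3 of 38 genes at least 1.5-fold higher, where 9.94% of all were, and 2 lower, where 5% were. The all-gene medians taken off for endothelial-like nuclei were 0.34 in PDGFB-NLS and 0.32 in Control. On the CPM scale these nuclei lay above other nuclei, at 1811 against 1527 in PDGFB-NLS and 1860 against 1519.5 in Control. The negative signs thus depend on the centring.

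H2bc6 was high in microglia or macrophage-like nuclei of every library and low in astrocyte-like ones. Its log2 ratio in microglia or macrophage-like over other nuclei was 0.60 (0.27 to 0.77) in PDGFB-NLS, 0.81 (0.36 to 1.23) in PDGFB-WT and 0.79 (0.56 to 1.02) in Control. In astrocyte-like over other nuclei it was -0.50 (-0.76 to -0.08) in PDGFB-NLS and -1.14 (-1.44 to -0.64) in Control. H2ac22 and H2bc22, which share a peak, ran the other way. In astrocyte-like nuclei they stood at 0.71 (0.47 to 0.91) in PDGFB-NLS and 0.81 (0.57 to 1.04) in Control, and in microglia or macrophage-like nuclei at -0.28 (-0.52 to -0.07) in PDGFB-NLS and -0.15 (-0.38 to 0.06) in Control. H4c12 had 25.5 CPM in astrocyte-like and 11.2 CPM in other nuclei of PDGFB-NLS, a log2 ratio of 1.23 (0.74 to 1.63). H4c14 stood at -0.31 (-0.53 to -0.02) in microglia or macrophage-like nuclei of PDGFB-NLS, -0.44 (-0.96 to -0.01) in PDGFB-WT and -0.36 (-0.57 to -0.10) in Control. These genes were chosen after their values were seen.

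**Figure D5:**
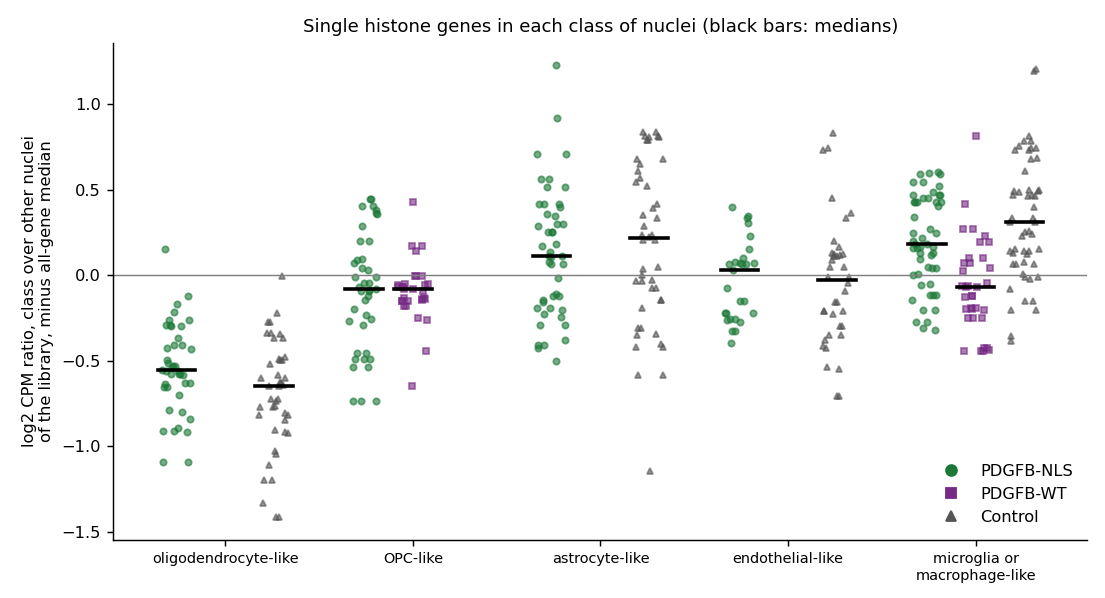
Log2 CPM ratio of each histone gene in a class of nuclei over all other nuclei of the same library, with the all-gene median taken off; circles are PDGFB-NLS, squares PDGFB-WT, triangles Control, and black bars the medians. In oligodendrocyte-like nuclei 41 of 42 genes in PDGFB-NLS and 43 of 43 in Control lie below 0, while the other classes straddle it; genes that share a peak have the same value.

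The libraries were also compared within a class. In microglia or macrophage-like nuclei, present in all 3 libraries as 1 cluster each, the pooled log2 ratio was -0.04 (-0.08 to 0.01) for PDGFB-NLS over Control, 0.01 (-0.06 to 0.08) for PDGFB-WT over Control and -0.04 (-0.11 to 0.03) for PDGFB-NLS over PDGFB-WT. All 3 intervals include 0, unlike that of the PDGFB-WT over Control sum, but this contrast depends on the centring. For PDGFB-WT over Control the all-gene median taken off was 0.09 in this class and -0.17 over all nuclei. On the CPM scale the class had 1894 in PDGFB-WT and 1775 in Control. The pooled log2 ratio was -0.01 for PDGFB-NLS over Control in both astrocyte-like (-0.07 to 0.05) and endothelial-like (-0.10 to 0.08) nuclei. In oligodendrocyte-like nuclei it was 0.13 (0.06 to 0.20) for PDGFB-NLS over Control. In OPC-like nuclei it was -0.15 (-0.24 to -0.07) for PDGFB-NLS over PDGFB-WT. The OPC-like nuclei of Control were too few for an all-gene median over a like number of genes, and no ratio is given for them.

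Genes that supply or handle histones were described beside them. Among 25 regulators of histone genes and their mRNA processing, 24 had a peak and were compared. Their median log2 ratio was 0.00 for PDGFB-NLS over Control, 0.00 for PDGFB-WT over Control and 0.01 for PDGFB-NLS over PDGFB-WT. None was past 1.5-fold either way. Of all compared genes, 5.8% were higher and 1.91% lower for PDGFB-NLS over Control, and 5.91% and 2.97% for PDGFB-WT over Control. For PDGFB-NLS over PDGFB-WT 2.46% were higher and 3.09% lower. Npat, the activator of histone transcription, had 143 CPM in PDGFB-NLS, 132 CPM in PDGFB-WT and 140 CPM in Control. The highest ratios over Control were those of Slbp (0.10) and the cleavage factor gene Cstf2 (0.10) in PDGFB-NLS, and of Nfya (0.32), a subunit of the CCAAT-binding factor, and Slbp (0.30) in PDGFB-WT. The lowest were Lsm10 (-0.25) and Cdk2 (-0.23) in PDGFB-NLS, and Cdk2 (-0.57) and E2f1 (-0.24) in PDGFB-WT. Between PDGFB-NLS and PDGFB-WT, Cdk2 (0.36) and Cpsf2 (0.27) were highest and Zfp473 (-0.37) and Nfya (-0.33) lowest.

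All 19 histone chaperone genes were compared, and their medians were -0.02 for PDGFB-NLS over Control, -0.08 for PDGFB-WT over Control and 0.10 for PDGFB-NLS over PDGFB-WT. Chaf1a and Chaf1b, subunits of the CAF-1 complex that deposits histones behind the replication fork, had the lowest ratios of PDGFB-WT over Control, at -0.53 and -0.47. Chaf1a had 55.8 CPM in PDGFB-NLS, 35.1 CPM in PDGFB-WT and 57.1 CPM in Control, and Chaf1b had 81.6 CPM in PDGFB-NLS, 47.4 CPM in PDGFB-WT and 73.7 CPM in Control. These 2 stood at 0.53 and 0.64 for PDGFB-NLS over PDGFB-WT. Chaf1b was the single chaperone gene at least 1.5-fold higher there, where 2.46% of all compared genes were. Rbbp4, the third CAF-1 subunit, stood highest for PDGFB-WT over Control at 0.49, followed by Mms22l at 0.20. For PDGFB-NLS over Control, Mms22l (0.42) and Hira (0.33) were highest, and Atrx (-0.73) and Daxx (-0.26) were lowest. For PDGFB-NLS over PDGFB-WT, Atrx (-0.59) and Rbbp4 (-0.37) were lowest. Atrx was the gene at least 1.5-fold lower in both of these comparisons, where 1.91% and 3.09% of all compared genes were. Its peaks differed between the libraries: a peak 492 bp from its end in PDGFB-WT and 554 bp in Control was not called in PDGFB-NLS.

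Of 14 further histone genes whose symbols did not match the rule, 13 had a peak, and 13, 12 and 12 were compared in the 3 comparisons. They include H2bu2 and H2aw on chromosome 11, and whether each of the 14 is replication-dependent was not assessed. Their medians were -0.04 for PDGFB-NLS over Control, 0.07 for PDGFB-WT over Control and -0.09 for PDGFB-NLS over PDGFB-WT. At least 1.5-fold higher over Control in PDGFB-NLS were 2 genes, H1f10 (1.504) and Macroh2a2 (0.90), where 5.8% of all compared genes were. In PDGFB-WT they were 2, H1f10 (1.49) and H2bu2 (0.66), where 5.91% of all were. H1f10, a linker histone gene, had 42.7 CPM in PDGFB-NLS, 37.9 CPM in PDGFB-WT and 15.2 CPM in Control, but the second of its peaks was not called in Control. At the peak called in all 3 it had 24.1 CPM in PDGFB-NLS, 21.8 CPM in PDGFB-WT and 15.2 CPM in Control. The lowest ratios over Control were those of Macroh2a1 (-0.29) and H3f3a (-0.27) in PDGFB-NLS, and of Cenpa (-0.37) and H3f3a (-0.26) in PDGFB-WT. For PDGFB-NLS over PDGFB-WT, Cenpa (0.45) and H1f10 (0.03) were highest and H2bu2 (-0.44) and H4f16 (-0.35) lowest.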

How the data were processed

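The authors deposited a matrix of raw counts per peak and barcode and a separate peak list for each of 3 libraries, 1 per group. The matrices hold output of cellranger-atac 2.1.0 per the file headers, and the build is mm10 and the software Cell Ranger 8 per the submitters' processing notes. How peaks and cells were called is not stated in these sources. Groups were taken from the titles in the labels.

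Peak positions and barcodes were used as deposited. Barcodes under 200 counts and peaks off chromosomes 1 to 19, X and Y were left out. Counts were summed per gene over that library's peaks within 1000 bp of either gene end, with genes from RefSeq (GRCm38.p6, the build of mm10), and scaled to 1e+06 counts in merged regions called in all 3 libraries. A region missing from a library's list was not called there, so its count is unknown and entered as no peak. A gene needed at least 100 counts in both libraries of a comparison, and ratios are log2 with the all-gene median taken off. Intervals are exact 95% Clopper-Pearson intervals of the conditional binomial on fragments, taken as (count + 1) // 2, while ratios are of counts, so an interval need not be centred on its ratio; they were checked on simulated data.

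No test was possible with 1 library per group, and 1.5-fold is the rule of size used. Nuclei were clustered per library (peaks in at least 1% of barcodes, TF-IDF, components 2 to 30, 15 neighbours, Leiden resolution 0.6) and named where a list's median log2 fold was at least 1 with at least 3 markers at that fold, unless another list had more of its markers among the top 10 genes. Doublets were not called or removed. Levels and ratios are given in full for the 6 genes with the highest mean level and the 5 highest and 5 lowest ratios in each comparison, and for the other lists the 2 highest and 2 lowest. The gene set, lists and markers were chosen with earlier results of these data known. Python 3.11.15, scipy 1.17.1, scikit-learn 1.9.0 and leidenalg 0.10.2 were used.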

Additional observations from a re-analysis of the deposited data

How the results depend on the processing

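The pooled ratio, the counts past 1.5-fold, the number of genes with a peak and the class levels and ratios were recomputed under 14, 14, 2 and 1 alternatives, and no pooled ratio over all nuclei whose interval excludes 0 changed sign. Centring on genes of like level or promoter GC, leaving out oligodendrocyte-like nuclei, merging regions and the finer clustering were chosen after seeing the data. The pooled log2 ratio of PDGFB-NLS over Control (0.01) was -0.088 with counts capped at 1 per peak and barcode, 0.041 per kb of peak and -0.045 without oligodendrocyte-like nuclei. That of PDGFB-WT over Control (0.25) was 0.11 capped, 0.087 with the all-gene median not taken off, 0.21 against genes of like promoter GC and 0.13 without oligodendrocyte-like nuclei. That of PDGFB-NLS over PDGFB-WT (-0.24) was -0.093 with the median not taken off, -0.28 against genes of like level, -0.17 against like promoter GC and -0.17 without oligodendrocyte-like nuclei.

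For PDGFB-NLS over Control, the 1 gene past 1.5-fold higher became 0 with a window of 2000 bp, capped counts, a minimum of 300 counts or merged regions, and 3 per kb of peak; the 0 lower became 1 with 2000 bp. For PDGFB-WT over Control, the 7 higher became 4 with 2000 bp, 3 on fragments, 0 capped, 11 per kb, 4 with the median not taken off and 2 with at least 300 counts, and the 0 lower became 1 with the median not taken off. For PDGFB-NLS over PDGFB-WT, the 6 lower became 1 on fragments, capped, with the median not taken off or with at least 300 counts, and the 0 higher became 1 per kb and 2 with the median not taken off. Fewer genes reach the minimum on fragments, capped or at 300 counts. For PDGFB-WT over Control 41, 40 and 36 histone genes were compared there. The cause of the other moves was not tested. The share of all genes past 1.5-fold was not computed under these alternatives, so these counts have no background beside them. At the finer clustering resolution, OPC-like nuclei of PDGFB-NLS had 1472 CPM, against 1385 CPM, and stood at 0.012 against other nuclei, against -0.096; astrocyte-like nuclei stood at 0.038 against other nuclei of Control, against 0.14, and at 0.056 for PDGFB-NLS over Control, against -0.0079. Windows of 500 and 2000 bp left 55 to 60 genes with a peak. No paired analysis was possible because each group has 1 library, all numbered replicate 1.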
